A study of Homo sapiens with 4 samples.

Results

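The genes described here are the oxidant-producing enzymes of the gut epithelium and the products induced with them, namely DUOX1, DUOX2, DUOXA2, NOX1, NOXO1, CYBA, NOS2, LCN2, SAA1 and SOD2. These 10 genes were chosen by name, and 9 of them had a row among the 37515 genes of the count table. Of the 14820 genes that passed the filter on low counts and were tested, 6 were among them (DUOX1, DUOX2, NOX1, CYBA, NOS2 and SOD2). DUOXA2, LCN2 and SAA1 had a row but too few counts to be tested, and the level of NOXO1 was not analysed here.

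RNA-seq was performed on wild-type Caco-2 cells, a human colorectal carcinoma cell line widely used as a model of intestinal epithelium, grown on transwells. Cells whose basal compartment received 60 ng/ml IFNγ for 3 h (2 libraries) were compared with unstimulated cells taken at 0 h (2 libraries), to ask how epithelial cells respond to IFNγ. IFNγ and the 3 h that passed therefore cannot be told apart. The labels do not say whether replicates came from separate cultures, so p-values measure only the spread between these libraries, and Caco-2 is a single tumour-derived line.

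Intestinal epithelial cells make reactive oxygen species on purpose. The dual oxidases DUOX1 and DUOX2 release hydrogen peroxide at the cell surface once a maturation factor (DUOXA1 or DUOXA2) has carried them there, whereas NOX1 makes superoxide in a membrane complex with CYBA and the cytosolic proteins NOXO1, NOXA1 and RAC1. Inducible nitric oxide synthase, encoded by NOS2, produces nitric oxide from arginine, LCN2 and SAA1 are secreted during inflammation, and SOD2 removes superoxide in mitochondria.

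The libraries held 7171455 to 10365346 counts, and replicate 1 was the deeper library in both conditions. Of 10 IFNγ-induced genes used as a check of the labels, all 10 were higher in both IFNγ libraries and 9 were called higher. Among all tested genes, 31.6% were higher in both IFNγ libraries and 2.88% were called higher. The 10 genes were listed with earlier results of these data known, so the check is not independent of them. The 8 enterocyte and colon epithelium markers were all expressed, and 2 of them were called, CDX2 higher (log2 fold change 1.2, edgeR adjusted p = 0.00117) and SI, which encodes sucrase-isomaltase, lower (-1.13, edgeR adjusted p = 0.0256). Over 6 leukocyte markers the summed level was 6.41 and 7.12 CPM in unstimulated and 8.44 and 11.8 CPM in IFNγ libraries, where CPM is the count scaled to library size by the TMM method. Most of that sum came from CD14, a monocyte marker, with 36 and 34 counts before and 59 and 65 after IFNγ (log2 fold change 0.82, edgeR adjusted p = 0.116), and from ITGAM, with 13 to 20 counts. PTPRC, the defining leukocyte marker, had at most 2 counts and the other 3 leukocyte markers at most 10. In the neutrophil list 3 of 4 markers (MPO, ELANE and FCGR3B) had 0 counts in every library, and the summed level of 1.77 to 4.47 CPM came from CSF3R (46 and 25 counts before, 45 and 13 after). The part of these markers in the results was not tested. In such bulk libraries, fewer expressing cells and less RNA per cell cannot be told apart.

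NOS2 rose after IFNγ, SOD2 rose by a smaller amount that stayed under the 2-fold threshold, and the oxidase genes did not pass the test. A gene was called when its adjusted p was under 0.05 and its log2 fold change was above 1 in size. Among the 6 tested members, 1 (NOS2) was called higher and 0 were called lower, while 2.88% of all tested genes were called higher, 4.4% lower and 7.28% in either direction. Without the fold threshold, 2 members (NOS2 and SOD2) were higher, compared with 9.02% of all tested genes higher and 20.0% in either direction. Both IFNγ libraries lay above both unstimulated libraries for 3 members (DUOX2, NOS2 and SOD2) and below them for 1 (NOX1), and the conditions overlapped for DUOX1 and CYBA. Among all tested genes, 31.6% lay wholly above, 30.8% wholly below and 62.4% in either direction. A log2 fold change above 0 was found for 5 of the 6 members and 49.4% of all tested genes. The median log2 fold change was 0.18 over the 6 tested members and -0.01 over all tested genes.

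**Figure D1:**
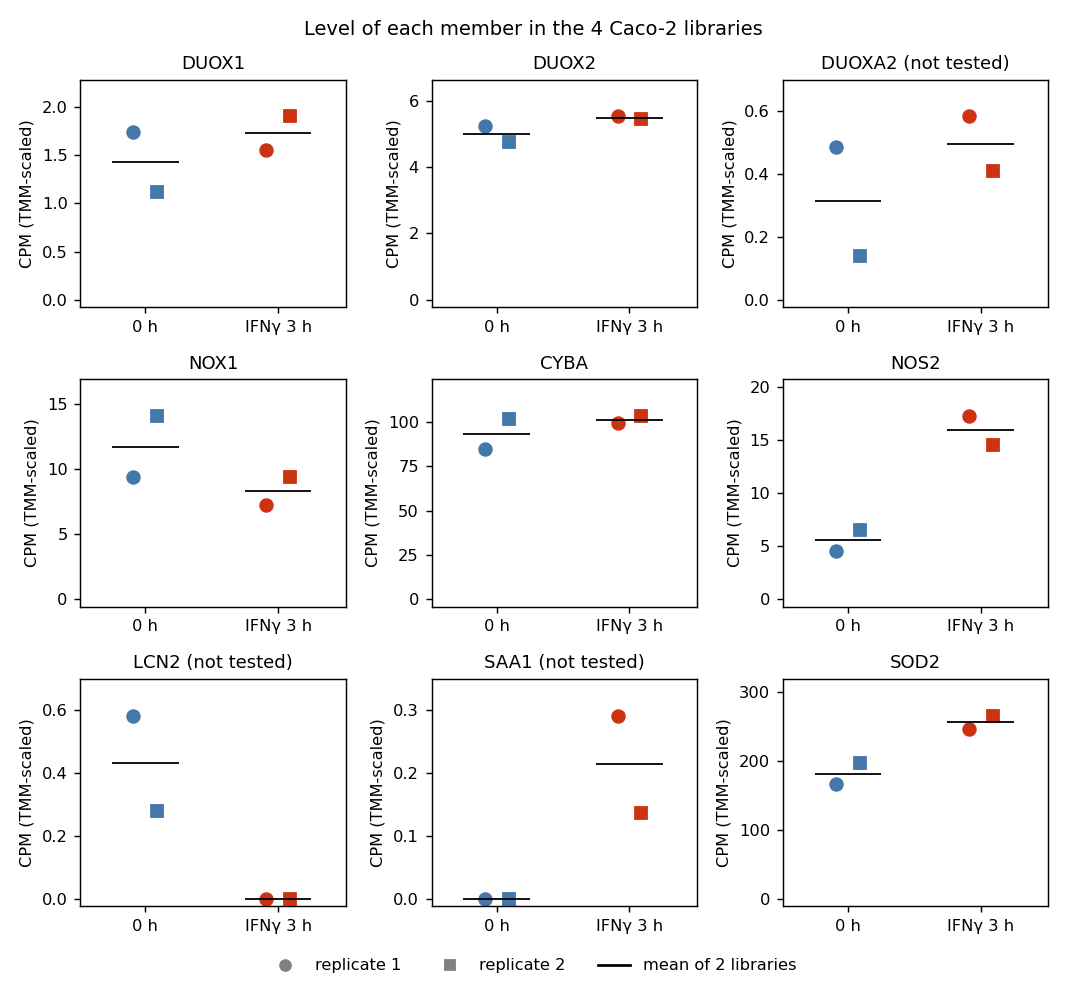
Level of each member with a row in each library, in CPM on a linear axis of its own for each gene; points are libraries and bars are condition means (n = 2). The IFNγ points of NOS2 (17.3 and 14.6 CPM) and SOD2 (246 and 266 CPM) stand above both unstimulated points, while those of DUOX1 and CYBA overlap them.

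The dual oxidase genes and their maturation factors form 1 locus of 72927 bases on chromosome 15, in which each oxidase is paired with a maturation factor read in the opposite direction. In GENCODE 44 on GRCh37, DUOX2 lies at chr15:45384848-45406370 on the minus strand, DUOXA2 at chr15:45406524-45410619 on the plus strand, DUOXA1 at chr15:45409564-45422136 on the minus strand and DUOX1 at chr15:45422131-45457774 on the plus strand. The starts of DUOX2 and DUOXA2 are only 154 bases apart, so both genes are transcribed away from the same short interval. That interval is shown because it lies upstream of both genes at once (RefSeq, GRCh38.p14, chr15:45114173-45114325, plus strand, 153 bases, 63.4% GC). The capitals mark a TATAAA match 32 to 27 bases before the DUOXA2 start.
DUOX2 and DUOXA2 interval: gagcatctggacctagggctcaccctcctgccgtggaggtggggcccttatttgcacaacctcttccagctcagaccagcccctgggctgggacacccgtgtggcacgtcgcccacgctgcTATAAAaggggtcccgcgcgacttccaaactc

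The same letters read from the opposite strand fall 127 to 122 bases before the DUOX2 start. TATAAA was present, on either strand, in 10.7% of 35116 windows covering the 250 bases before a gene start. Such windows were found for 8 of the 10 members, 11 windows in all, of which 4 are those of SOD2. NOS2 and SAA1 had no window and were not searched. None of the 11 held the IFNγ-linked GAS letters TTCNNNGAA or the interferon-linked ISRE motif on either strand, which occurred in 6.57% and 3.02% of all windows. A match is a description of the letters and not evidence of a bound factor, and a window without one says nothing about the factor.

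Neither dual oxidase changed beyond the spread between libraries. DUOX2, the form best known in the gut, was counted 54 and 34 times in unstimulated and 57 and 40 times in IFNγ libraries, or 5.24 and 4.75 CPM against 5.53 and 5.44 CPM. Both IFNγ libraries were thus above both unstimulated libraries, but the gap between the nearest ones was smaller than the difference between the unstimulated replicates. The log2 fold change was 0.13 (SE 0.257, 95% interval -0.47 to 0.73, edgeR quasi-likelihood test, Benjamini-Hochberg adjusted p = 0.757). Removing the trend of fold change with GC content turned it to -0.05.

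DUOX1, the form best known in airway, had 18 and 8 counts before and 16 and 14 counts after IFNγ. These were 1.75 and 1.12 CPM against 1.55 and 1.90 CPM. The conditions overlapped, and the highest and the lowest DUOX1 levels stood in an IFNγ and an unstimulated library of replicate 2. Its log2 fold change was 0.22 (SE 0.429, 95% interval -0.78 to 1.23, adjusted p = 0.752, edgeR), and it was -0.03 without unstimulated replicate 2. With so few counts, the interval for DUOX1 still included a doubling.

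The maturation factors were at the limit of detection. DUOXA2 had 5 and 1 counts in unstimulated and 6 and 3 counts in IFNγ libraries, 0.485 and 0.140 CPM against 0.582 and 0.408 CPM. The conditions overlapped, and the ratio of summed counts (IFNγ over unstimulated) was 1.44 with an exact 95% counting interval of 0.457 to 4.91. DUOXA1, the partner of DUOX1, had 0 and 2 counts before and 1 and 3 counts after. DUOXA1 and DUOXA2 share 706 exon bases on opposite strands, 27.7% of the DUOXA2 exons, and reads there cannot be assigned to 1 of them unless the counting used strand, which is not given in the sources used here. At this depth, a change in either factor was not detectable.

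Within the locus, per kilobase of transcript, DUOX2 stood at 0.785 ± 0.0548 CPM per kb (SD, n = 2) in unstimulated cells, DUOX1 at 0.261 ± 0.0812 and DUOXA2 at 0.178 ± 0.139. The DUOX2 level exceeded the DUOX1 level 3.01-fold before and 2.74-fold after IFNγ, and the DUOX2 libraries did not overlap those of DUOX1. DUOX1 and DUOXA2 overlapped.

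The NOX1 complex showed a lower NOX1 level after IFNγ that did not pass the test. NOX1 (GRCh37 chrX:100098313-100129348, minus strand), the catalytic subunit of the colonic superoxide-producing oxidase, was counted 97 and 101 times in unstimulated and 75 and 69 times in IFNγ libraries. This corresponded to 9.42 and 14.1 CPM before and 7.27 and 9.39 CPM after. Both IFNγ libraries lay below both unstimulated ones, although unstimulated replicate 1 and IFNγ replicate 2 nearly touched. The mean was 11.8 ± 3.32 CPM (SD, n = 2) before and 8.33 ± 1.49 CPM after, with a log2 fold change of -0.49 (SE 0.266, 95% interval -1.12 to 0.13, edgeR adjusted p = 0.232). The NOX1 value moved with the library left out, being -0.19 without unstimulated replicate 2 and -0.77 without unstimulated replicate 1. Without IFNγ replicate 1 it was -0.32, and without IFNγ replicate 2 it was -0.70.

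CYBA (GRCh37 chr16:88709683-88717491, minus strand) encodes the small membrane subunit that stabilises NOX1. Its counts were 876 and 728 in unstimulated and 1025 and 760 in IFNγ libraries, or 85.0 and 102 CPM against 99.4 and 103 CPM. The conditions overlapped and the log2 fold change was 0.12 (SE 0.130, 95% interval -0.18 to 0.43, edgeR adjusted p = 0.552). The direction of CYBA was not stable. Its transcript has 68.1% GC, log2 fold changes rose with GC content across 14519 genes (Spearman rho = 0.44, a description across genes, which are not independent), and removing the trend of GC and length gave -0.17. Without unstimulated replicate 1 it was -0.005.

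The cytosolic partners were measured as well. NOXA1, the activator of NOX1, had 241 and 91 counts before and 171 and 79 counts after IFNγ, so that its replicates differed more than its conditions. Its log2 fold change was -0.41 (SE 0.320, edgeR adjusted p = 0.410), and 0.12 without unstimulated replicate 1. RAC1, the small GTPase of the complex, had 1864 and 1506 counts before and 2372 and 1864 after, a log2 fold change of 0.31 (SE 0.125, edgeR adjusted p = 0.127). RAC1 passed with GC and length removed (0.39, adjusted p = 0.0465) and with GC alone removed (0.43, adjusted p = 0.0480), but not with medians over transcripts (0.33, adjusted p = 0.103). CYBB, the catalytic subunit of the phagocyte oxidase, was hardly counted, with 0 and 0 counts before and 0 and 1 counts after.

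Of the 19 other NADPH oxidase subunits and partners listed, 17 had a row and 6 were tested. Called genes numbered 0 in each direction, and 0 passed an adjusted p under 0.05 in edgeR. At an unadjusted p under 0.05, the test returned 3 of the 6, against 35.3% of all tested genes. The median log2 fold change of the 6 was 0.20, and 4 of them lay higher in both IFNγ libraries, as did 31.6% of all tested genes.

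**Figure D2:**
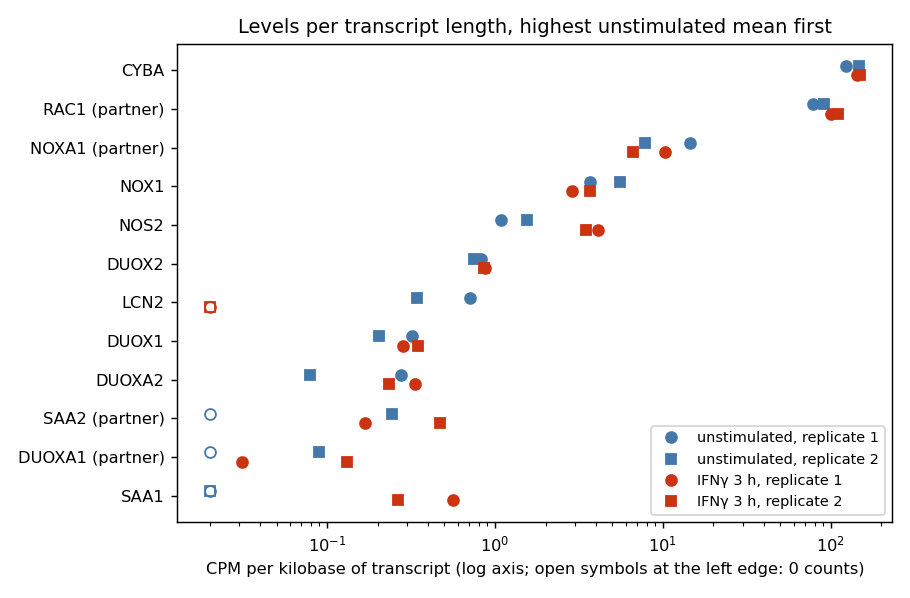
Level per kilobase of transcript (CPM per kb, log axis) in each library for members and their partners, in the order of the unstimulated means; open symbols at the left edge mark 0 counts. CYBA, at a transcript length of 692 bases, and RAC1 stand far above NOX1, and NOS2 moves from below NOX1 to the level of NOX1 after IFNγ.

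NOS2 was the one member called higher. NOS2 (GRCh37 chr17:26083792-26127555, minus strand) encodes the inducible synthase whose output is set mainly by how much of it is made. It was counted 47 times in each unstimulated library, and 178 and 107 times in the IFNγ libraries. In CPM these were 4.56 and 6.56 before and 17.3 and 14.6 after. The lowest IFNγ library thus held more than the highest unstimulated library by a wide margin, and the means were 5.56 ± 1.42 CPM and 15.9 ± 1.91 CPM (SD, n = 2). The log2 fold change was 1.54 (SE 0.242, 95% interval 0.97 to 2.11, edgeR quasi-likelihood test, Benjamini-Hochberg adjusted p = 0.00612), a 2.91-fold rise (95% interval 1.96 to 4.31). The log2 difference was 1.87 between the replicate 1 libraries and 1.12 between the replicate 2 libraries. By p-value, NOS2 stood at rank 755 of the 14820 tested genes. NOS2 stayed called when each library was left out in turn, with a log2 fold change of 1.28 to 1.80. Macrophages also make NOS2. In the same libraries CD14 was higher in both IFNγ libraries without passing the test. Its level was 3.50 and 4.75 CPM before and 5.72 and 8.84 CPM after. ITGAM overlapped. CD68, also of the leukocyte list, had 4 and 0 counts before and 0 and 0 after, and PTPRC had 0, 0, 2 and 0 counts. The part of these markers in the NOS2 result was not tested.

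Per kilobase of transcript, NOS2 moved from 1.32 ± 0.337 to 3.78 ± 0.455 CPM per kb (SD, n = 2). In unstimulated cells its level was 0.286 times that of NOX1, with no overlap between libraries. After IFNγ the ratio of the level of NOS2 to that of NOX1 was 1.15, and the libraries of the 2 genes overlapped, at 4.10 and 3.46 against 2.86 and 3.69 CPM per kb. Relative to DUOX2, the NOS2 level went from 1.68 to 4.39 times.

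**Figure D3:**
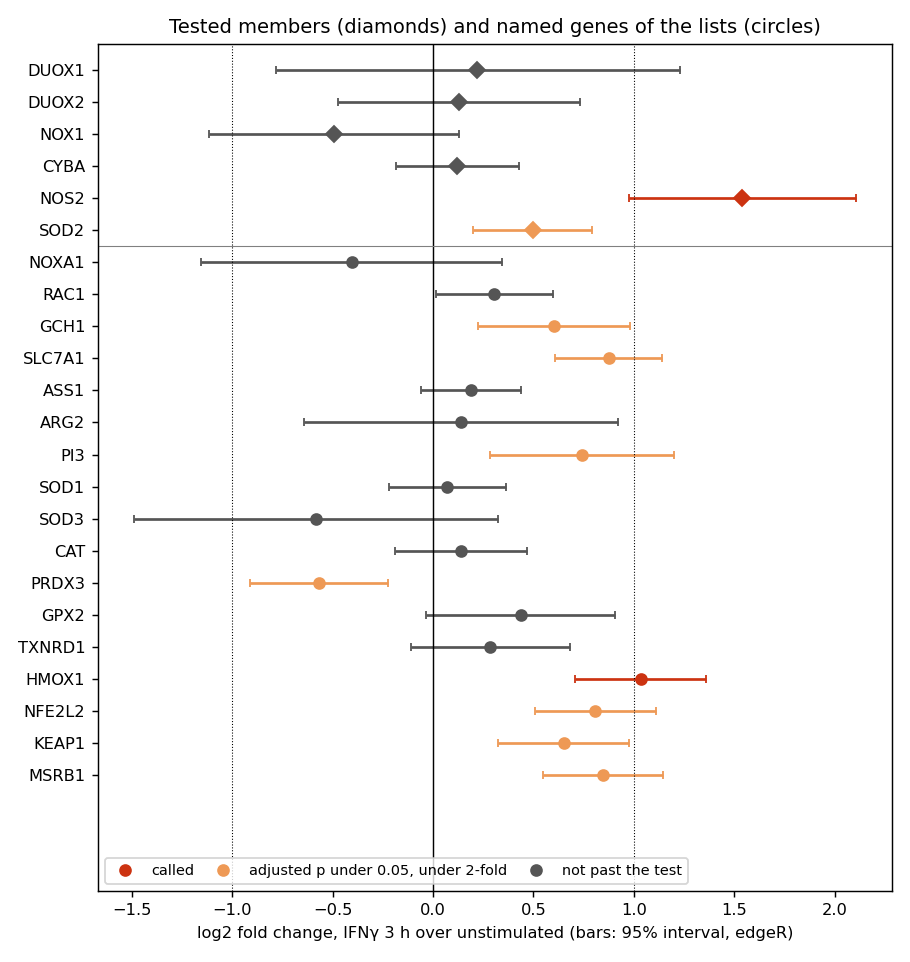
Log2 fold change after IFNγ with its 95% interval from edgeR for the 6 tested members (diamonds) and named genes of the lists (circles); dotted lines mark 2-fold. NOS2 is the member whose point lies beyond the 2-fold line, at 1.54, and the intervals of DUOX1, DUOX2, NOX1 and CYBA include 0.

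Of the 19 genes listed for nitric oxide synthesis and arginine handling, 17 were tested and 0 were called in either direction by edgeR. An adjusted p under 0.05 was reached by 2, both higher (GCH1 and SLC7A1), and by 0 lower, while an unadjusted p under 0.05 was reached by 6. Among all tested genes 9.02% reached an adjusted p under 0.05 higher and 11.0% lower, and 35.3% had an unadjusted p under 0.05. Calls were made for 2.88% of all tested genes higher and 4.4% lower. SLC7A1, a transporter that brings arginine into the cell, was counted 949 and 652 times before and 1650 and 1293 times after IFNγ, and rose by a log2 fold change of 0.87 (SE 0.115, edgeR adjusted p = 0.00361). Another listed arginine transporter, SLC7A2, went the other way, with 686 and 498 counts before and 542 and 382 after. Its fall did not pass the test (log2 fold change -0.38, SE 0.119, edgeR adjusted p = 0.0629). GCH1, which makes the tetrahydrobiopterin cofactor of nitric oxide synthases, was counted 243 and 208 times before and 387 and 311 times after, a log2 fold change of 0.60 (SE 0.162, edgeR adjusted p = 0.0386). For GCH1 the adjusted p was 0.186 without unstimulated replicate 1 and 0.116 without IFNγ replicate 2.

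The genes that recycle or divert arginine did not pass the test. ASS1, which regenerates arginine from citrulline, had 4044 and 3023 counts before and 4699 and 3481 after (log2 fold change 0.19, SE 0.107, edgeR adjusted p = 0.251). ARG2, the mitochondrial arginase, which competes for the same substrate, had 31 and 34 counts before and 42 and 32 after (log2 fold change 0.14, SE 0.333, edgeR adjusted p = 0.800). The listed genes whose pattern over the 4 libraries lay nearest to that of NOS2 were NOS1AP and HMOX1, at a Euclidean distance of 0.59 and 0.77 on the log2 CPM scale among 75 genes compared. NOS1AP, an adaptor of the neuronal synthase, had only 4 and 5 counts before and 14 and 15 counts after IFNγ, and its log2 fold change of 1.65 did not pass the test (SE 0.544, edgeR adjusted p = 0.0721).

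The secreted inflammatory products LCN2 and SAA1 were almost silent in all 4 libraries. LCN2 (GRCh37 chr9:130911350-130915732, plus strand), which withholds iron from bacteria by binding their siderophores, had 6 and 2 counts in unstimulated and 0 and 0 counts in IFNγ libraries. Summed over the unstimulated libraries its level was 0.466 CPM (exact Poisson 95% interval 0.201 to 0.918), and the 0 counts after IFNγ allow a level of up to 0.206 CPM by the same exact interval. LCN2 was thus seen only in the unstimulated libraries, and its 8 counts were too few for the across-gene test. The intervals overlapped narrowly, which is not itself a test of a difference. Intervals cover counting error only.

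SAA1 (GRCh37 chr11:18287807-18291524, plus strand), an acute-phase apolipoprotein, had 0 and 0 counts before and 3 and 1 counts after IFNγ. Its summed level after IFNγ was 0.224 CPM (exact Poisson 95% interval 0.0609 to 0.572), and the 0 counts before allow up to 0.215 CPM, so the intervals overlapped and a difference was not shown at this depth. Its near-identical neighbour SAA2, which lies 17592 bases away, had 0 and 1 counts before and 1 and 2 after. Reads from SAA1 and SAA2 may be split or lost in counting, so neither value is certain. Both genes were seen in at most 3 reads per library.

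The 250 bases before the LCN2 start (RefSeq, GRCh38.p14, chr9:128149203-128149452, plus strand) and before the CYBA start (chr16:88651054-88651303, minus strand) are shown because each holds a match to the NF-kB motif, here in capitals, while LCN2 was nearly silent and CYBA had the highest level among the members given a level per kilobase, which leave out SOD2. The match lies 175 to 166 bases before the LCN2 start and 195 to 186 bases before the CYBA start. Both matches are read from the strand opposite to the letters shown. NF-kB matches, searched on both strands, were present in 9.96% of all windows, and among members also in that of NOXO1.
LCN2 window: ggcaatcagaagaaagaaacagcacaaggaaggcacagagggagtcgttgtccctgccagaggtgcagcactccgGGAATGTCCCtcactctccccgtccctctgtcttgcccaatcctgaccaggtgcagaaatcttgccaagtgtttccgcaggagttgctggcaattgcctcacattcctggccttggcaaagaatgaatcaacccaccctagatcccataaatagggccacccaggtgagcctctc
CYBA window: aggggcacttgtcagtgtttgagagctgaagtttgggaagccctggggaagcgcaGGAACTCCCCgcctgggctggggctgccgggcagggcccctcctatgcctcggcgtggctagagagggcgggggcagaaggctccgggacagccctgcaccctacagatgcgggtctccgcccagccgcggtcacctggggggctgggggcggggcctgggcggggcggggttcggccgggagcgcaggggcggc

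Of 37 acute-phase and antimicrobial genes listed, 30 had a row, 13 were tested and 7 had 0 counts in every library. By edgeR 0 were called in either direction, 1 reached an adjusted p under 0.05 higher (PI3) and 0 lower, and 2 reached an unadjusted p under 0.05. Among all tested genes, 9.02% reached an adjusted p under 0.05 higher and 35.3% an unadjusted p under 0.05. The median log2 fold change of the 13 was 0.27, and 5 lay higher in both IFNγ libraries, as did 31.6% of all tested genes. PI3, an epithelial inhibitor of neutrophil elastase also known as elafin, was counted 195 and 198 times before and 392 and 289 times after IFNγ. Its log2 fold change was 0.74 (SE 0.196, edgeR adjusted p = 0.0369), and without unstimulated replicate 1 it was 0.48 with an adjusted p of 0.157. With GC alone removed the PI3 adjusted p was 0.0844, and with medians over transcripts 0.0537. Of the neutrophil markers in the same libraries, MPO, ELANE and FCGR3B were at 0 and CSF3R had 46 and 25 counts before and 45 and 13 after.

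SOD2 was the most abundantly counted member and was higher after IFNγ by less than 2-fold. SOD2 encodes the mitochondrial manganese superoxide dismutase, which turns superoxide into hydrogen peroxide (GRCh37 chr6:160090101-160183561, minus strand). It was counted 1711 and 1407 times in unstimulated and 2533 and 1952 times in IFNγ libraries, or 166 and 197 CPM against 246 and 266 CPM. All IFNγ values lay above all unstimulated values, with means of 181 ± 21.5 and 256 ± 14.1 CPM (SD, n = 2). The log2 fold change was 0.50 (SE 0.126, 95% interval 0.20 to 0.79, edgeR quasi-likelihood test, Benjamini-Hochberg adjusted p = 0.0331), a 1.41-fold rise (95% interval 1.15 to 1.73).

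The SOD2 adjusted p was 0.160 without unstimulated replicate 1 and 0.0953 without IFNγ replicate 2. With the trend of GC content and length removed, its log2 fold change was 1.04 and it was called, but that value rests on a canonical transcript of 14167 bases, while the 15 annotated SOD2 transcripts have a median length of 815 bases. With the median GC content and length over transcripts in place of that transcript, it was 0.54 (adjusted p = 0.0194), below the fold threshold. For the same reason no level per kilobase is given for SOD2. The gene shares 437 exon bases with WTAP on the opposite strand, 2.41% of its exons, where reads cannot be assigned without strand.

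**Figure D4:**
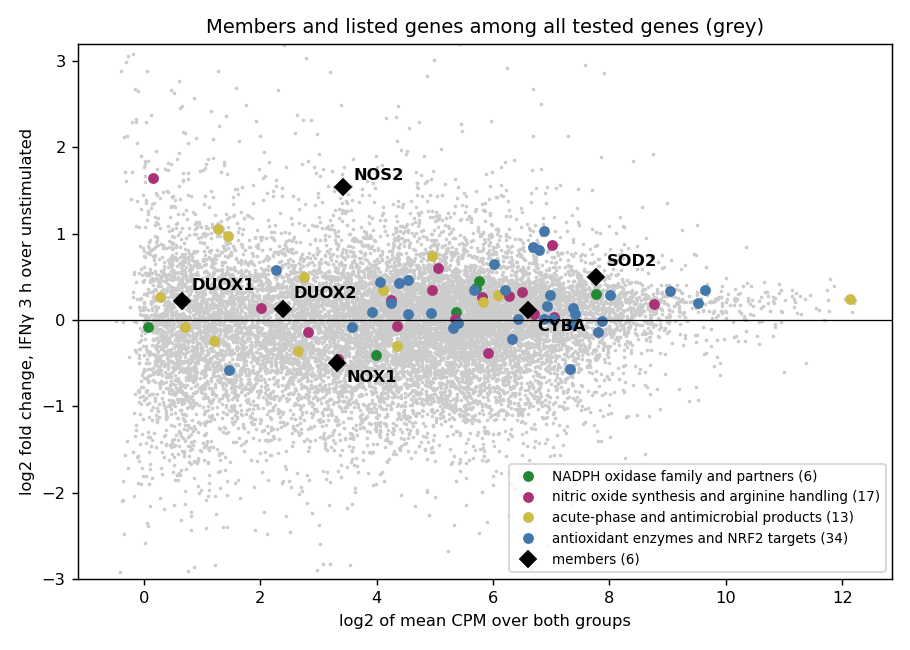
Log2 fold change after IFNγ (vertical) against the log2 of the mean CPM (horizontal) for all tested genes in grey, the tested members as labelled diamonds and the tested genes of the lists as coloured circles; 41 genes lie outside the vertical range. NOS2 stands at a log2 fold change of 1.54 and SOD2 at 0.50, while DUOX1, DUOX2 and CYBA lie close to 0.

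The other superoxide dismutases did not pass the test. Cytosolic SOD1 had 1592 and 1270 counts before and 1708 and 1345 after IFNγ (log2 fold change 0.07, 95% interval -0.22 to 0.36, edgeR adjusted p = 0.723). Extracellular SOD3 had 26 and 30 counts before and 24 and 15 after (log2 fold change -0.58, SE 0.387, edgeR adjusted p = 0.326). Catalase, encoded by CAT, which removes the hydrogen peroxide that dismutases make, had a log2 fold change of 0.14 (95% interval -0.19 to 0.47, edgeR adjusted p = 0.527). GPX2, the glutathione peroxidase of the gut epithelium, had 134 and 109 counts before and 170 and 160 after (log2 fold change 0.44, SE 0.200, edgeR adjusted p = 0.167). TXNRD1, the cytosolic thioredoxin reductase, had a log2 fold change of 0.28 (SE 0.169, edgeR adjusted p = 0.274). The intervals of SOD1 and CAT leave out a 2-fold change, and that of SOD3 does not.

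Of 37 antioxidant enzymes and NRF2 targets listed, 34 were tested, 1 was called higher (HMOX1) and 0 were called lower by edgeR. Without the fold threshold 4 were higher (HMOX1, NFE2L2, KEAP1 and MSRB1) and 1 was lower (PRDX3), and 11 had an unadjusted p under 0.05. Among all tested genes 2.88% were called higher, 9.02% were higher and 11.0% lower without the fold threshold, and 35.3% had an unadjusted p under 0.05. The median log2 fold change of the 34 was 0.15. HMOX1, heme oxygenase, which breaks down free heme, was counted 735 and 593 times before and 1489 and 1258 times after IFNγ. It rose by a log2 fold change of 1.03 (SE 0.139, edgeR adjusted p = 0.00384). HMOX1 lies at the fold threshold: its log2 fold change was 0.93 without unstimulated replicate 1, 0.89 without IFNγ replicate 2 and 0.99 when libraries were scaled by size only, each below it. It was also below it with GC and length removed (0.82), with GC alone removed (0.84) and with medians over transcripts (0.85).

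NFE2L2, which encodes NRF2, the main activator of antioxidant genes, was counted 771 and 617 times before and 1530 and 978 times after (log2 fold change 0.81, SE 0.129, edgeR adjusted p = 0.00634). With GC and length removed, with GC alone removed and with medians over transcripts, NFE2L2 was called in place of HMOX1, at 1.01, 1.05 and 1.16. KEAP1, whose protein marks NRF2 for degradation, rose as well, with 496 and 378 counts before and 747 and 633 after (log2 fold change 0.65, SE 0.139, edgeR adjusted p = 0.0177). With the trend removed KEAP1 no longer passed, at 0.43 (adjusted p = 0.0788 for GC and length), 0.44 (adjusted p = 0.0795 for GC alone) and 0.42 (adjusted p = 0.0833 for medians). MSRB1, a selenoprotein that repairs oxidised methionine, had 707 and 567 counts before and 1311 and 1018 after (log2 fold change 0.85, SE 0.127, edgeR adjusted p = 0.00530). PRDX3, the mitochondrial peroxiredoxin, fell, with 1723 and 1556 counts before and 1320 and 964 after (log2 fold change -0.57, SE 0.146, edgeR adjusted p = 0.0341). The KEAP1 adjusted p was 0.0750 without unstimulated replicate 1 and 0.0705 without IFNγ replicate 2, and that of PRDX3 was 0.141 without unstimulated replicate 2. The PRDX3 log2 fold change shrank to -0.31 with GC and length removed (adjusted p = 0.102), -0.23 with GC alone (adjusted p = 0.285) and -0.17 with medians (adjusted p = 0.425).

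Ordered by level per kilobase in unstimulated cells, the 8 members with such a level, which leave out SOD2 and NOXO1, ran from CYBA (135 ± 17 CPM per kb, SD, n = 2) through NOX1 (4.62 ± 1.30), NOS2 (1.32 ± 0.337), DUOX2 (0.785 ± 0.0548), LCN2 (0.525 ± 0.261), DUOX1 (0.261 ± 0.0812) and DUOXA2 (0.178 ± 0.139) to SAA1 at 0. Neighbours in this order did not overlap between libraries, except DUOX1 and DUOXA2, and the places of LCN2, DUOX1, DUOXA2 and SAA1 rest on 0 to 18 counts per library. After IFNγ, NOS2 (3.78 ± 0.455) stood beside NOX1 (3.28 ± 0.588), and CYBA remained the highest of these 8 at 147 ± 4.07. The CYBA level was 29.2 times the NOX1 level before and 44.8 times after, and the NOX1 level was 5.89 times the DUOX2 level before and 3.81 times after. The differences between these ratios were not tested. The CYBA level rests on a canonical transcript of 692 bases, while all annotated CYBA exons together cover 4161 bases. With that longer length, the level of CYBA and its ratio to NOX1 would be lower.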

How the data were processed

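Total RNA of 4 Caco-2 libraries (TruSeq kit) was sequenced, and the authors deposited whole-number counts for each Ensembl gene and library, with no normalization. The submitters' processing notes name HISAT 0.5.1 and HTSeq 0.6.1p1. The genome build, annotation and strand setting of the counting are not given in the sources used here. A symbol was found for 96.5% of the 37515 identifiers. SOD2 was found through the identifier that the study's supplementary tables pair with that symbol. Coordinates, lengths and GC content came from GENCODE 44 on GRCh37, and promoter windows from RefSeq on GRCh38.p14.

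Counts were tested with edgeR 4.0.16 in R 4.3.3 (filterByExpr, TMM scaling, quasi-likelihood F test, two-sided, 2 against 2 libraries), with Benjamini-Hochberg adjustment over 14820 genes. Calls required an adjusted p under 0.05 and a log2 fold change above 1 in size. The SE was obtained by dividing the log2 fold change by √F. The depth of 7171455 to 10365346 counts per library and the 2 libraries per condition set the precision. CPM values are TMM-scaled, except in the counting intervals for genes that were not tested, which use library size. Patterns over libraries used log2 CPM with a prior count of 2.

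Alternatives were DESeq2 size factors, library size only, DESeq2 1.42.0, no filter, at least 10 counts in every library, a replicate block, no fold threshold, removal of a loess trend (span 0.5) of GC content and length, and each library left out in turn. GC content alone, and medians over transcripts, were added after the data were seen. Some of the fits were also run on simulated counts. These held no trend with GC content and no variation shared by same-numbered libraries, so they cannot show how the fits handle either. The members and lists were chosen with earlier results of these data known. The rule for names took all members, every called gene of a list, set direct partners, and the 2 listed genes nearest to each called member. A partner gene under that rule is not reported here. Listed genes with an adjusted p under 0.05 but under the fold threshold were named outside that rule, after their values were seen. So was SLC7A2, whose values under the alternatives are not given.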

Additional observations from a re-analysis of the deposited data

How the results depend on the processing

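NOS2 was called under every alternative run, with a log2 fold change of 1.28 to 1.80. DUOX1, DUOX2, NOX1 and CYBA were called under none. SOD2 was called with the trend of GC content and length removed, without (1.04) and with (1.04) the replicate block, which made 2 members called higher in each case. Dropping the fold threshold also gave 2. Signs turned for DUOX1 (-0.03 to 0.61 when each library was left out), DUOX2 (-0.047 with the GC trend alone removed) and CYBA (-0.17 with GC and length removed, -0.16 with the block as well, -0.14 with GC alone, -0.13 with medians over transcripts, and -0.005 to 0.25 when each library was left out). Among named partners, signs turned when libraries were left out for NOXA1 (-0.79 to 0.12), ARG2 (-0.17 to 0.48), SOD1 (-0.026 to 0.17) and CAT (-0.058 to 0.28), and for ASS1 with GC and length removed (-0.002, and -0.001 with the block). With the block and the trend removed, HMOX1 was at 0.82 and NFE2L2 was called at 1.01, as without the block. The cause was not tested.

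Over all genes, 1337 were higher and 1626 lower without the fold threshold. Genes called lower fell from 652 to 277 with GC and length removed, 322 with GC alone and 327 with medians, and ranged from 504 to 1239 when each library was left out, the highest without IFNγ replicate 1. Genes called higher in the nitric oxide list numbered 1 with no filter, 1 with the block, 1 with the block and the trend removed, and 2 without the fold threshold. In the acute-phase list they numbered 1 with the block, 1 without the fold threshold and 0 to 1 when each library was left out. In the antioxidant list they numbered 0 with library size only, 2 with no filter, 4 higher and 1 lower without the fold threshold, and 0 to 1 when each library was left out.

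The replicate block gave 492 genes called higher and 896 lower. Deviations of same-numbered libraries correlated at r = 0.415 over 14820 genes, so these libraries varied together in part. The labels do not say what a number shares and there are only 2 pairs, so the source of that shared variation was not tested. With the block, NOS2 remained the 1 member called. Of the named partners, NOS1AP was called with the block (1.64, adjusted p = 0.0320), with block and trend removed (1.55, adjusted p = 0.0439) and with no filter (1.67, adjusted p = 0.0424), which is the 1 gene of the nitric oxide list above. RAC1 passed an adjusted p under 0.05 with the block (0.0123) and with block and trend removed (0.00513). ASS1 passed in edgeR with the block (0.19, adjusted p = 0.0427). With block and trend removed, NOXA1 (-0.68, adjusted p = 0.0111) and TXNRD1 (0.44, adjusted p = 0.0254) passed in edgeR. KEAP1 (0.43, adjusted p = 0.00945) and PRDX3 (-0.31, adjusted p = 0.0220) passed there too, although not with the trend removed and no block. Without a filter the fit used almost none of a gene's own spread, so its p-values are not comparable. DESeq2 gave an adjusted p for 11946 of the 14820 genes. Depth limited DUOXA2, LCN2 and SAA1, which had 0 to 6 counts per library.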
